A study of Mus musculus with 4 samples.

Results

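The 8 miRNAs described here are made by routes that skip Drosha, the nuclear enzyme that releases most miRNA hairpins. They are 6 arms of the mirtron hairpins miR-877, miR-1224, miR-1981 and miR-702 (mmu-miR-877-5p, mmu-miR-877-3p, mmu-miR-1224-5p, mmu-miR-1224-3p, mmu-miR-1981-5p and mmu-miR-702-3p), together with mmu-miR-320-3p and mmu-miR-484. The species prefix is left out from here on. All 8 were taken by name, with no threshold on their values, from the 1038 mouse miRNAs listed in the deposited table. Small RNA came from the medial prefrontal cortex of C57BL/6 male juvenile mice (C57BL/6J in the study's methods), with 2 libraries of control mice and 2 libraries of mice under chronic unpredictable mild stress (CUMS), a schedule of varied stressors kept up for weeks. Stressed mice were used only if they met the criteria of depression-like behavior in all of the tests, so the CUMS group stands for susceptible animals, while control mice lived without the stressors. RNA was isolated mouse by mouse from both sides of the cortex, and it mixes every cell type of that tissue. Fewer cells of a type and less RNA per cell cannot be told apart in such samples.

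In the usual route, the Drosha complex crops a hairpin out of a long transcript, Dicer cuts off its loop, and one of the arms, 5p or 3p, is kept by an Argonaute protein. A mirtron is a short intron that is cut out by the spliceosome, opened by the debranching enzyme and folded into a hairpin that goes straight to Dicer. Its 5p arm therefore begins with the first bases of an intron, usually GU, and its 3p arm ends near the last ones, usually AG. The precursor of miR-320 is instead known to be transcribed directly as a short capped RNA, whose cap keeps the 5p arm out of Argonaute, and miR-484 has also been described as independent of Drosha. Both routes still need Dicer.

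The mature sequences of 7 members were found among those of RefSeq (GRCm38.p6). They are printed 5′ to 3′ with the seed, bases 2 to 8, in capitals, because the seed picks the targets and the outer bases show the marks of splicing. Lower case letters are the remaining bases.
miR-877-5p: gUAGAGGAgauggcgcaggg
miR-1224-5p: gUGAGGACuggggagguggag
miR-1981-5p: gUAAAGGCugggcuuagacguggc
miR-877-3p: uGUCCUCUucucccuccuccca
miR-1224-3p: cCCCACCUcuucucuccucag
miR-702-3p: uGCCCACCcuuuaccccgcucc
miR-484: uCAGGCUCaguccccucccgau
The partner arms of miR-1981 and miR-702 are also listed in the table, although they are not members.
miR-1981-3p: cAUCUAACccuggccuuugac
miR-702-5p: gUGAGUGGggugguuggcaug
No seed of these 9 arms was shared with any other of the 835 listed miRNAs whose sequences were found. The 5p arms of all 4 mirtron hairpins begin with GU, which 4.94% of 425 5p arms do. Among their 3p arms, miR-1224-3p ends with AG, which 17.8% of 410 3p arms do. The 5p arms are rich in G, with 55.0% in miR-877-5p, 61.9% in miR-1224-5p and 41.7% in miR-1981-5p, against a median of 30.8% over 425 5p arms. The 3p arms are rich in C and U, like the stretch before the end of an intron. These bases made up 90.9% of miR-877-3p, 85.7% of miR-1224-3p and 81.8% of miR-702-3p, against a median of 57.1% over 410 3p arms. Their share was lowest in miR-1981-3p, at 66.7%. These shares describe the sequences, and no test was made of them.

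The positions of the hairpins were set against the introns of GENCODE M21 on mouse genome build GRCm38. The hairpin of miR-877 (chr17:35960730-35960814, minus strand) is the same 85 bases as an intron of Abcf1, a gene of an ATP-binding cassette protein that acts in translation. The hairpin of miR-1224 (chr16:20604452-20604536, plus strand) is the same 85 bases as an intron of Vwa5b2. The hairpin of miR-1981 (chr1:184822407-184822488, minus strand) is the same 82 bases as an intron of Marc2, which encodes a mitochondrial reductase. The annotated hairpin of miR-702 (chr5:136991433-136991541, plus strand) starts 9 bases before an intron of Plod3, a gene of a collagen-modifying enzyme, and ends 2 bases before its end, so that it overlaps an exon of Plod3 at its start. The intron of Plod3 runs from 136991442 to 136991543, a length of 102 bases, and miR-702-5p starts at its first base. The 5p arms of all 4 hairpins thus start at the first base of an intron. Among the 3p arms, miR-1224-3p ends at the last base of its intron, miR-877-3p ends 1 base before it, and miR-702-3p and miR-1981-3p end 2 bases before it.

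The other hairpins lie in no annotated intron or exon of the same strand. The hairpin of miR-320 (chr14:70443510-70443591, plus strand) begins 63 bases upstream of the start of Polr3d, which encodes a subunit of RNA polymerase III and is read in the opposite direction. The hairpin of miR-484 (chr16:14159626-14159692, plus strand) begins 359 bases upstream of the start of Marf1, also read in the opposite direction. The nearest start on the strand of miR-484 is that of Nde1, a regulator of the dynein motor in neural progenitors, 3649 bases further on.

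Every library held between 9589323 and 10783592 reads on known miRNAs, recovered as whole reads from the deposited group means. Letters a and b tell the libraries within a group apart and carry no replicate number. The 4 neuronal markers of the tissue check, miR-9-5p, miR-128-3p, miR-138-5p and miR-124-3p, took 6.70% to 9.43% of the reads. Most of these were miR-9-5p, with 631128 reads in control library a, against 26501 of miR-124-3p. The liver marker miR-122-5p was at 0 in the control libraries and at 1 read in each CUMS library. Control library b stood apart, since the miR-183 and miR-200 clusters took 9.32% of its reads against 0.0393% to 0.0722% in the other libraries. Member values that this could touch were also computed without that library or without those clusters, and some of these are given. The marker shares keep those clusters in the totals. With 2 libraries against 2, a two-sided exact permutation test cannot give a p below 0.333, and the labels do not say how many mice stand behind a library. All p-values therefore take these libraries as the units, and not a known number of mice.

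The members together took 0.0742% to 0.0937% of the miRNA reads of a library. In CPM, reads scaled to a common library total, this was 742 in control library a, 828 in control library b, 937 in CUMS library a and 803 in CUMS library b. The mirtron arms made up most of it, with 535 and 610 CPM in the control pair and 717 and 576 CPM in the CUMS pair. These groups overlapped, with CUMS library a the highest, and the two-sided exact permutation test gave p = 0.667. The mean was 572 ± 53.2 CPM in control and 647 ± 99.1 CPM in CUMS (SD, n = 2 in each group). For miR-320-3p and miR-484 together, the values were 207 and 218 CPM in control and 220 and 227 CPM in CUMS. The CUMS libraries were above the control libraries here, at the smallest p that this exact permutation test can give, 0.333. With the reads of the miR-183 and miR-200 clusters left out of the totals, control library b rose to 240 CPM and the groups overlapped. On the same totals the mirtron arms stood at 673 CPM in control library b, and all 8 members at 913 CPM.

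The level of the members in control ran from 2.46 for miR-702-3p to 4069 for miR-877-5p. The deposited table gives a mean normalized count, that is reads divided by a size factor of the library, of 4069 in control and 4616 in CUMS for miR-877-5p. The means for miR-320-3p were 1614 and 1574, those for miR-1224-5p were 1609 and 1419, those for miR-484 were 628 and 661, and those for miR-1981-5p were 348 and 402. The remaining 3 members, the 3p arms of miR-877, miR-1224 and miR-702, had means under 10. By rank among all listed miRNAs, miR-877-5p stood between place 91 and place 111 in the libraries and miR-320-3p between place 140 and place 153. In this order, miR-877-5p was above all other members in 4 of 4 libraries. The neighbors miR-320-3p and miR-1224-5p were not separated, since each was higher in 2 libraries, and the 3 rare arms overlapped with each other. The remaining neighbors did not overlap in any library.

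**Figure D1:**
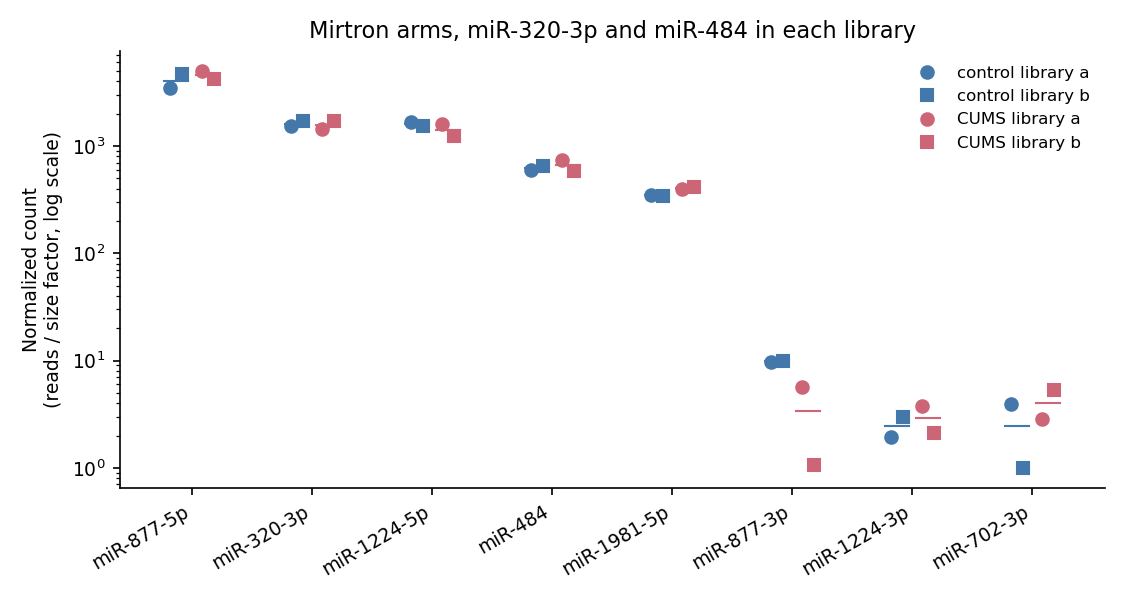
Normalized counts (reads divided by size factor, log scale) of the 8 members in each library, ordered by control level, with short lines at the deposited group means. The abundant 5 members lie between 345 and 5034, and the highest value of such a member is 1.19 to 1.46 times its lowest. The 3 rare 3p arms lie between 1.00 and 10.0 and scatter.

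The mirtron arms were set among all listed miRNAs that lie against an intron end. Of the 835 miRNAs with a sequence, 89 arms of 82 hairpins had their outer end within 3 bases of an annotated intron end on the same strand. Only 12 of these are 5p arms, and all 12 start at the first base of the intron, while 77 are 3p arms. By reads, however, the 5p arms held 25318 and the 3p arms 5207 in the 4 libraries together. The 3 arms with the most reads were miR-877-5p, miR-1224-5p and miR-1981-5p, which took 82.4% of all reads on the 89 arms. miR-877-5p alone took 57.4% with 17525 reads. The fourth was miR-1981-3p with 1258 reads, and the next were miR-6944-3p with 774, miR-7019-3p with 633 and miR-3082-3p with 603. The median of the 89 arms was 9 reads. Some of the 89 may meet an intron end without being cut out by splicing, which the positions alone do not show.

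**Figure D2:**
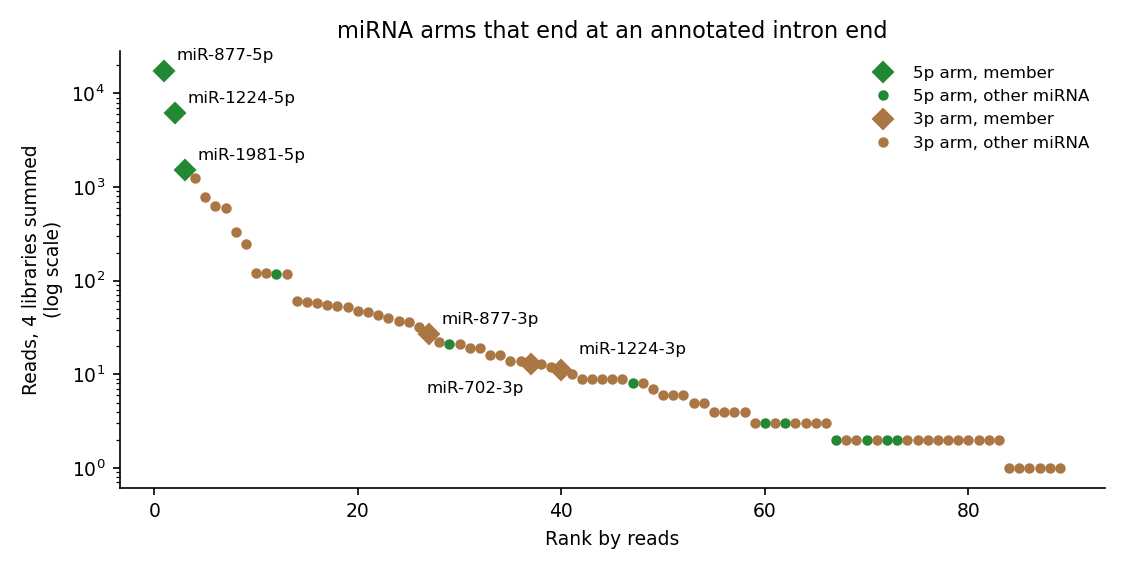
Reads of the 89 miRNA arms whose outer end lies within 3 bases of an annotated intron end, summed over 4 libraries (log scale) and ranked, with 5p arms in green, 3p arms in brown and members as diamonds. The 3 leading points are the 5p arms miR-877-5p (17525 reads), miR-1224-5p (6123) and miR-1981-5p (1509), and nearly all points further down are 3p arms.

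The hairpins of miR-877 and miR-1224 gave almost all their reads from the 5p arm, whereas miR-1981 gave nearly equal reads from both arms. For miR-877, 17525 reads fell on the 5p arm and 27 on the 3p arm, 649 to 1. The 5p share was 99.72% (95% exact binomial interval 99.48% to 99.86%) in control library a and 99.79% (99.61% to 99.90%) in control library b. It was 99.89% (99.76% to 99.96%) in CUMS library a and 99.97% (99.86% to 99.9994%) in CUMS library b. Both CUMS shares were above both control shares by the reads of a rare arm, with the smallest p of the exact permutation test, 0.333. The difference of 0.179 percentage points rested on 20 reads of the 3p arm in control and 7 in CUMS. For miR-1224, the 5p share was 99.88% and 99.80% in the control pair and 99.76% and 99.83% in the CUMS pair, with 2, 3, 4 and 2 reads on the 3p arm. The groups overlapped (exact permutation p = 0.667). Without molecular identifiers on the reads, these intervals and the floors given here cover counting error alone.

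For miR-1981, the 5p share was 55.2% (51.3% to 59.1%) in control library a and 52.1% (48.2% to 56.0%) in control library b. It was 52.9% (49.4% to 56.5%) in CUMS library a and 58.2% (54.3% to 61.9%) in CUMS library b, and the groups overlapped (exact permutation p = 0.667). For miR-702, 21 reads of the 5p arm and 13 reads of the 3p arm were counted in all, so that its share of 61.8% is poorly measured. These values were set beside 177 hairpins with at least 100 reads and with both arms listed at a single place in the genome. Their more abundant arm held a median of 97.0% of the reads, and it was the 5p arm in 52.0% of them. The one-sidedness of miR-877 was above that of 144 of the 177 hairpins and that of miR-1224 above 143, while that of miR-1981 was above only 6. The balance of miR-1981 was thus uncommon and the one-sidedness of the other pair was not. No test was made of these places.

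**Figure D3:**
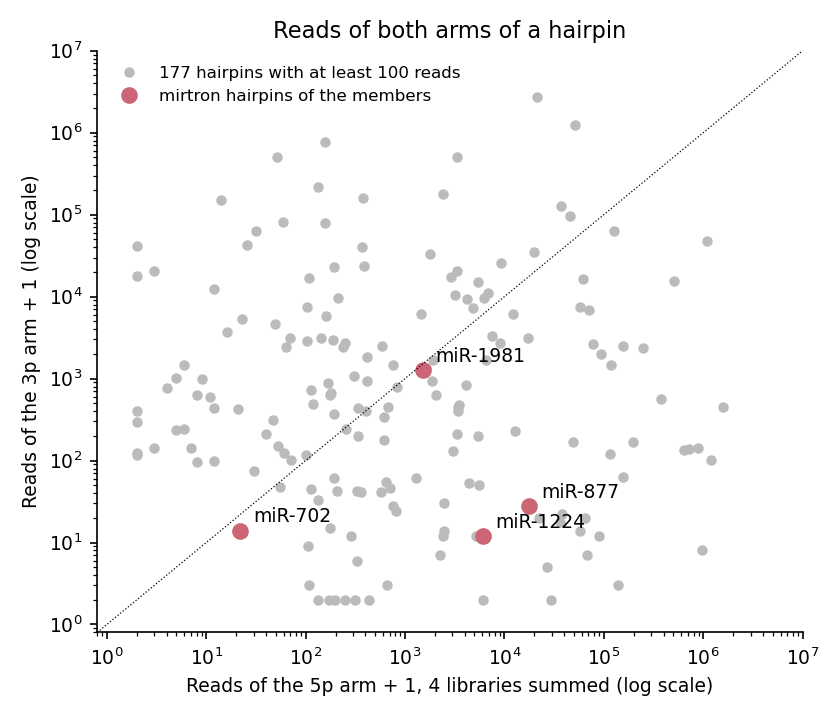
Reads of the 3p arm against reads of the 5p arm, both plus 1 and summed over 4 libraries (log scales), for 177 hairpins with at least 100 reads (grey) and the mirtron hairpins of the members (red), with a dotted line of equal reads. The points of miR-877 and miR-1224 lie far below the line, at 27 and 11 reads of the 3p arm, and those of miR-1981 and miR-702 lie near it.

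Between CUMS and control, no member passed the test across all miRNAs. The edgeR quasi-likelihood test took the recovered reads of the 719 miRNAs that reached 5 reads in any library, which included 7 of the 8 members and left out miR-1224-3p. Of the 719, 30 (4.17%) had an unadjusted p under 0.05 and 0 (0%) an adjusted p under 0.05, and 0 of the 7 members had an unadjusted p under 0.05. By the DESeq2 Wald test, 24 (3.34%) of the 719 and 0 of the 7 had an unadjusted p under 0.05, and 0 had an adjusted one. The group means differed by a fold above 1.5 for 31.7% of the 719 and for 2 of the 7 members, miR-877-3p and miR-702-3p, both among the rare arms. Where a group mean reached 50 or more, 7.8% of miRNAs passed that fold, and 0 of the 5 abundant members did. The CUMS libraries did not overlap with the control libraries for 33.8% of the 719 and for 2 of the 7 members, miR-1981-5p and miR-877-3p. The mean was higher in CUMS for 52.3% of the 719 and for 4 of the 7 members. These counts of the members were not tested against the background shares. The median log2 ratio of CUMS over control was 0.08 over the 7 members and 0.02 over the 719.

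**Figure D4:**
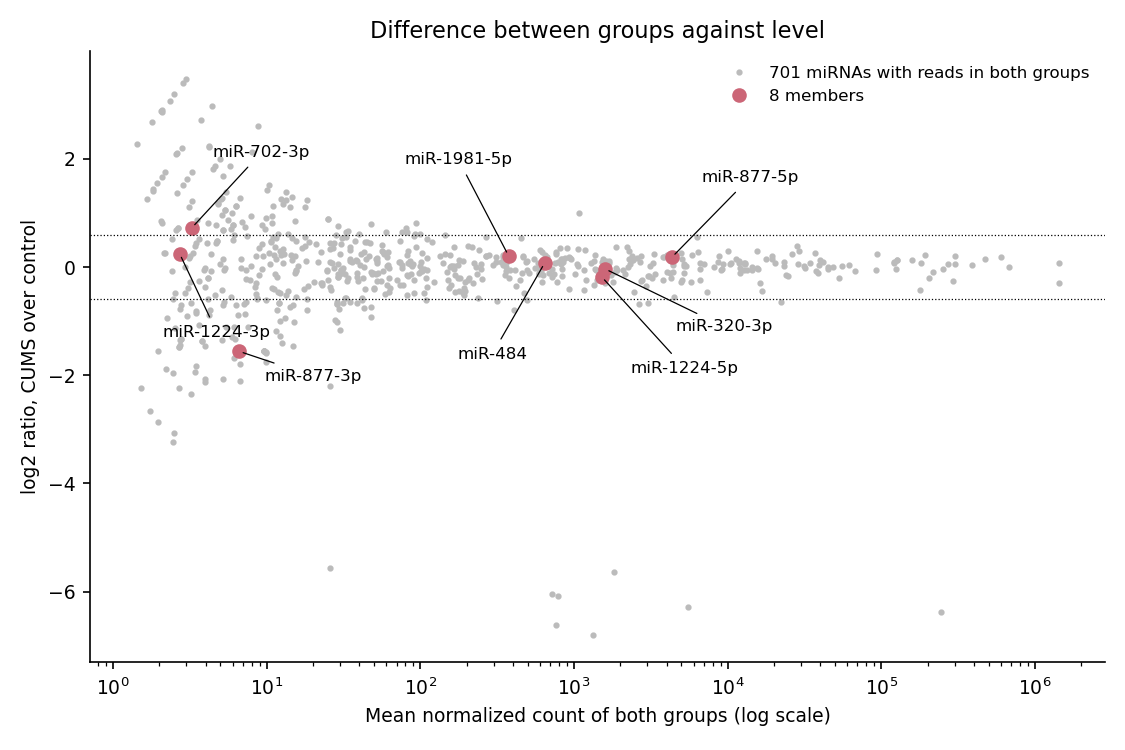
The log2 ratio of the deposited group means, CUMS over control, against the mean normalized count of both groups (log scale) for 701 tested miRNAs with reads in both groups (grey) and the 8 members (red), with dotted lines at a fold of 1.5. The 5 abundant members lie between -0.18 and 0.21, and of the rare arms miR-877-3p lies at -1.56 and miR-702-3p at 0.73.

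For miR-877-5p, control libraries a and b gave 3534 and 4683 reads, against 5346 and 3962 from the CUMS pair. Normalized by size factor, these were 3457, 4681, 5034 and 4198. The groups overlapped, since the value of CUMS library b fell inside the control range. The log2 ratio of the group means was 0.18. By the edgeR quasi-likelihood test the log2 fold change was 0.15 (adjusted p = 0.931), and the 95% interval of the DESeq2 fold was 0.848 to 1.51. Control library a was the lowest, and without it the log2 ratio was -0.02. Without control library b the log2 ratio was 0.42, the highest of its alternatives.

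For miR-1224-5p, the control pair gave 1722 and 1534 reads, against 1697 and 1170 from the CUMS pair, which are normalized counts of 1684, 1533, 1598 and 1240. The groups overlapped because CUMS library a fell inside the control range. The log2 ratio was -0.18, the edgeR adjusted p was 0.913, and the DESeq2 interval of the fold was 0.660 to 1.17. Without CUMS library b, which was the lowest, the log2 ratio was -0.01.

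For miR-1981-5p, the control pair gave 359 and 345 reads, against 417 and 388 from the CUMS pair, which are normalized counts of 351, 345, 393 and 411. The CUMS values all lay above the control values, and the spread within groups, an SD of 0.04 in log2 units, was the smallest of the 8 members. The log2 ratio was 0.21, a fold of 1.15, and between 0.17 and 0.24 with each library left out in turn, and 0.28 by total reads. With the miR-183 and miR-200 clusters left out of those totals it was 0.21. The edgeR test gave an adjusted p of 0.931, the exact permutation test gave its smallest p, 0.333, and the DESeq2 interval of the fold was 0.821 to 1.61. Such an order of the libraries was seen for 16.7% of the 719 miRNAs and for 1 of the 7 members. The partner arm miR-1981-3p, from the same intron, gave 291 and 317 control reads and 371 and 279 CUMS reads. Its normalized groups overlapped, and its log2 ratio was 0.10.

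Among the rare arms, miR-877-3p gave 10 reads in each control library, against 6 and 1 from the CUMS pair. The CUMS values all lay below the control values, an order seen for 17.1% of the 719 miRNAs and for 1 of the 7 members. For the rare arms, the reads of a group were summed and divided by its summed size factors. The ratio of these values, CUMS over control, was 0.353 for miR-877-3p, with a 95% interval of 0.126 to 0.869. Such intervals cover counting error only. By the edgeR test, which also counts the spread between libraries, the log2 fold change was -1.53 (adjusted p = 0.849), and the DESeq2 interval of the fold was 0.0471 to 2.47. For miR-702-3p the control reads were 4 and 1 and the CUMS reads 3 and 5, a ratio of 1.61 (0.465 to 6.27). In the edgeR test its log2 fold change was 0.65 (adjusted p = 0.951). For miR-1224-3p the control reads were 2 and 3 and the CUMS reads 4 and 2, a ratio of 1.21 (0.308 to 5.01). With values around the floor of 3 reads, a difference between the groups in either of these arms was not detectable at this depth.

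For miR-320-3p, the control pair gave 1568 and 1695 reads, against 1518 and 1623 from the CUMS pair. The normalized counts were 1534, 1694, 1429 and 1720, with both the highest and the lowest value in the CUMS libraries. The log2 ratio was -0.04, which became 0.04 when total miRNA reads replaced the size factors. With the miR-183 and miR-200 clusters left out of those totals it was -0.03. The edgeR adjusted p was 0.962, and the DESeq2 interval of the fold was 0.738 to 1.28. Of the 282 miRNAs with at least 100 reads in every library, 13.1% had group means closer to each other. miR-320-5p was not analysed here.

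For miR-484, the control pair gave 614 and 655 reads, against 781 and 554 from the CUMS pair, which are normalized counts of 601, 655, 735 and 587. Here, too, the CUMS libraries held both the highest and the lowest value. The log2 ratio was 0.08 and turned to -0.10 without CUMS library a. The edgeR adjusted p was 0.982, and the DESeq2 interval of the fold was 0.766 to 1.44.

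Across the libraries, the highest normalized count of an abundant member was between 1.19 times (miR-1981-5p) and 1.46 times (miR-877-5p) its lowest. The median of this ratio over the 282 miRNAs was 1.32. The intervals of miR-320-3p and miR-484 do not reach a fold of 1.5 in either direction, while that of miR-1224-5p reaches just past a fall of that size, with its lower end at 0.660. Those of miR-877-5p and miR-1981-5p reach past 1.5 at the upper end.

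**Figure D5:**
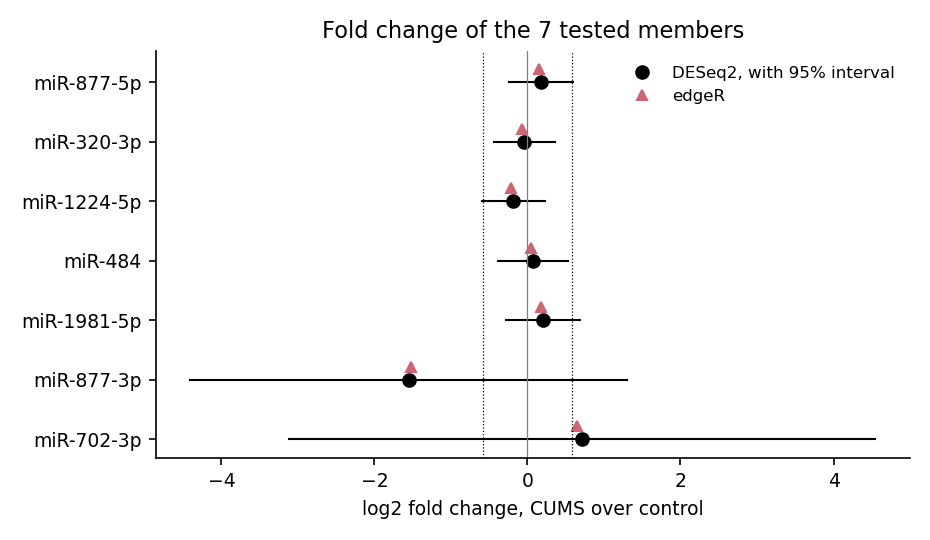
The log2 fold change of CUMS over control for the 7 tested members by DESeq2 (black points with 95% intervals) and edgeR (red triangles), with dotted lines at a fold of 1.5. All intervals include 0, those of the abundant members are narrow, and those of miR-877-3p and miR-702-3p span several log2 units.

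The miRNAs with the pattern most like that of miR-877-5p over the 4 libraries were miR-99b-5p, miR-342-3p and miR-145a-3p. Their distances from it were 0.07, 0.13 and 0.14 on the log2 scale, each pattern being centred on its own mean, among 281 candidates. For miR-320-3p the nearest were miR-181b-5p at 0.03, miR-3082-3p at 0.06 and miR-181d-5p at 0.07. Patterns over 4 libraries share the depth and the make-up of those libraries, so the likeness is a description.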

How the data were processed

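Small RNA from the medial prefrontal cortex was sequenced in 2 control and 2 CUMS libraries, grouped by their titles. The authors cleaned the reads, matched them to miRBase precursors without mismatch and counted them per mature miRNA, so that reads with bases that differ from the precursor were not counted. They compared the groups with DESeq. The submitters' processing notes name Bowtie, DESeq and mm10, and the versions used for the miRNA reads are not given in the sources used here. The deposited signal is a group's mean of reads divided by size factors, and no column holds a single sample. The columns bear no group names and were assigned from the study's own headings for these values. The authors' columns of folds, log2 folds and p-values were not used.

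Library read counts were recovered from the deposited means, each being the sum of whole reads of a pair of libraries, weighted by a step per library that was solved by least squares. All 1038 means per group (100%) fitted whole reads within a relative error of 1e-09, and 2 control means had a second pair of counts whose error was under 10 times that of the best. In 20 simulated columns, from 99.8% to 100% of values were recovered. Size factors computed anew from the reads equalled those in the steps (1.02, 1.00, 1.06 and 0.944). Recovered totals were 10533646, 10783592, 10427625 and 9589323 reads, in which 3 reads are 0.278 to 0.313 CPM.

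The main value is the log2 ratio of the deposited means. The tests beside it were the edgeR 4.0.16 quasi-likelihood test (TMM) and DESeq2 1.42.0 (Wald test), run in R 4.3.3 on the 719 miRNAs that reached 5 reads in any library, with Benjamini-Hochberg adjustment over them. On reads simulated for 662 miRNAs, edgeR called 200 of 200 miRNAs changed by a fold of 4 and 10 unchanged ones, and DESeq2 called 200 and 4. The changed ones were drawn only from the more abundant miRNAs, with a fixed dispersion of 0.02. The simulation therefore does not cover the rare arms, or folds as small as those of the abundant members. Alternatives were other scalings, an added count, no filter, another fold and leaving out libraries. DESeq2 without the filter was chosen after seeing the data. Shares have Clopper-Pearson intervals. Python 3.11.15, pandas 2.3.3 and scipy 1.17.1 were used. Sequences were matched by name for 835 miRNAs (80.4%). All 8 members are named, with partner arms, a list of miRNAs of other unusual origin, and those nearest in pattern, found among miRNAs with at least 100 reads in every library. miR-6944-3p, miR-7019-3p and miR-3082-3p are named as those with the most reads on an intron end. The members, lists and tests were chosen with earlier results of these data known.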

Additional observations from a re-analysis of the deposited data

How the results depend on the processing

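Of 78 log2 ratios of the members under other scalings, an added count of 1, either test or a left-out library, 71 kept their sign. All kept it for miR-877-3p, miR-1224-5p, miR-1981-5p and miR-702-3p. The sign turned for miR-877-5p without control library a, and for miR-484 without CUMS library a. It turned for miR-1224-3p without control library a or CUMS library a. For miR-320-3p it turned without control library b or CUMS library a, and by total reads. With the miR-183 and miR-200 clusters left out of those totals, miR-320-3p kept its sign, at -0.03. The count of 2 members past a fold of 1.5 became 1 with 1 added to both means and 0 among members with a mean of at least 50, and was 2 in the other alternatives. The members behind it changed, however: without control library b or CUMS library b, miR-702-3p no longer passed and miR-1224-3p, which is not among the 7 tested members, did, at log2 ratios of 0.59 and 0.60. The difference of miR-320-3p and miR-484 together, 11.2 CPM, became 0.106 CPM without the miR-183 and miR-200 clusters in the totals, and 5.82 to 16.6 CPM on leaving out 1 library. That of the mirtron arms, 74.4 CPM, was 43.3 CPM without the clusters and 4.28 to 144 CPM on leaving out 1 library, lowest without CUMS library a. No alternative gave a member with an unadjusted p under 0.05. No paired analysis was possible because the recovered libraries carry no replicate numbers. The log2 ratio of miR-877-3p ran from -3.22 without CUMS library a to -0.81 without CUMS library b. That of miR-702-3p was 2.02 without control library a, 0.05 without control library b and 0.20 without CUMS library b. For the 3 rare arms the depth of a few reads is the limit.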

Other observations

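Of 5 tested miRNAs of other unusual origins, the groups overlapped for 4 and did not for 1, miR-1839-3p, against 33.8% of all 719 tested miRNAs without overlap. For miR-451a, an erythroid miRNA that is cut by an Argonaute protein in place of Dicer, the control pair gave 332 and 315 reads, against 331 and 396 from the CUMS pair, a log2 ratio of 0.19. The summed share of the 3 blood markers, miR-451a, miR-144-3p and miR-486a-5p, was between 1.07% and 1.33% of the miRNA reads, highest in CUMS library b. Nearly all of that sum was miR-486a-5p, with 121988 reads in control library a, against 97 of miR-144-3p. By itself, miR-451a stood at 29.2 to 41.3 CPM over the libraries. miR-1839-5p, which overlaps a small Cajal body RNA, was more abundant than any mirtron, with 13497 and 12067 control reads, 13118 and 13330 CUMS reads and a log2 ratio of 0.07. The control reads of its 3p arm were 7 and 9 and the CUMS reads 15 and 22, without overlap (edgeR quasi-likelihood test, log2 fold change 1.19, adjusted p = 0.849). miR-664-5p, which overlaps a small nucleolar RNA, gave 780 and 876 control reads and 959 and 797 CUMS reads. The deposited means of miR-664-3p were 113 in control and 109 in CUMS. For miR-1291, not tested, the control reads were 3 and 0 and the CUMS reads 1 and 2. None of the 5 tested miRNAs of this list had an unadjusted p under 0.05 by edgeR or DESeq2.

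Of the miRNAs on an intron end that are not members, 39 were tested. The CUMS values lay above the control values without overlap for 8 of them and below for 5, and 1, miR-6944-3p, had an unadjusted edgeR p under 0.05. Over all 719 tested miRNAs these shares were 16.7%, 17.1% and 4.17%, and the counts were not tested against them. The control pair gave 205 and 252 reads, against 172 and 145 from the CUMS pair, with an edgeR log2 fold change of -0.55 (adjusted p = 0.849), and a DESeq2 p of 0.0964 without adjustment. It was singled out after its values were seen.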
